A study of Mus musculus with 6 samples.

Results

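The genes described here build platelet granules and release their contents. They are 40 named mouse genes of the HOPS, BLOC and AP-3 complexes, the granule transporters and the SNAREs, and each was read on its brightest probe set among those assigned to that gene alone. Of the 40 genes, 39 had such a probe set, and all 39 also passed the filter on dim probe sets, so they are 39 of the 11260 genes tested. Bloc1s1 has no value here because its probe set is shared with Rdh5. The platform measured 18193 genes with a probe set of their own.

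Megakaryocytes were grown from mouse fetal liver cells given thrombopoietin, the main growth factor of this lineage, and mature cells were taken from an albumin gradient. All mice had a mixed C57BL/6xSv129 background. The control group held 3 cultures, FOG1+/- for replicates 1 and 2 and FOG1+/+ for replicate 3, and the other group held 3 cultures whose genotype the labels give as FOG1-/- ki/ki, here FOG1 ki/ki. FOG1 is a cofactor of GATA transcription factors, and the labels do not say which change the knocked-in allele carries, nor how many animals went into a culture. The comparison asks how the granule machinery of these cells is transcribed when the FOG1 present comes from that allele.

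Platelets carry alpha granules, which hold proteins such as von Willebrand factor, and dense granules, which hold serotonin, nucleotides and calcium and belong to the lysosome-related organelles. Megakaryocytes assemble both kinds from endosomes with tethering complexes (HOPS), coat and sorting complexes (AP-3 and the BLOCs) and Rab GTPases, and transporters then load the dense granules. Release in the platelet needs SNARE proteins, which pull the granule and plasma membranes together, and SM proteins, which guide SNARE assembly. Loss of several of these genes causes bleeding disorders, among them gray platelet, Hermansky-Pudlak and Chediak-Higashi syndromes.

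The array values were MAS5 intensities, called signals below, and differences are FOG1 ki/ki minus control on the scale log2(signal + 16). Trimmed means were 150 on every array, while the median signal ranged from 5.93 to 12.3. Precision is limited by having 3 arrays a group. Pf4, a defining product of megakaryocytes, read between 3358 and 4156 on every array. Of 13 megakaryocyte markers 11 were tested and all 11 were below control (median difference -0.22), of which Gp6 passed the test with the replicate block. Zfpm1, which encodes FOG1, differed by 0.11, and as the knocked-in allele can be transcribed this does not check the labels. The ratio of 3' to 5' signal of Gapdh was at most 1.86 on 5 arrays and was 2.38 on FOG1 ki/ki replicate 3. Xist read 807 on control replicate 1 and at most 4.6 elsewhere, and the Y-linked Eif2s3y read 2.5 there and at least 841 elsewhere, so the cultures numbered 1 differed in sex. In bulk cultures, fewer cells of a type and less RNA per cell cannot be told apart.

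None of the 39 genes passed the test between FOG1 ki/ki and control. The vesicular monoamine transporter Slc18a2 was 1.13 log2 units higher in FOG1 ki/ki, and Slc35d3, Abcc4 and Lyst were 0.92, 0.78 and 0.77 lower. With limma over all genes, 0 of 39 had a Benjamini-Hochberg adjusted p under the threshold of 0.05, against 0.151% of all genes, and 0 with the replicate number as a block, against 0.835%. At an unadjusted p under 0.05 there were 4 of 39, or 10.3%, against 6.69% of all genes, and these were Slc18a2, Slc35d3, Abcc4 and Lyst. With the block there were 7, or 17.9%, close to the 18.4% of all genes. Hps4, Dtnbp1 and Stx11 were the added genes.

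Of the 39 members, 19 were above control and 20 below, against 6204 above and 5056 below of all 11260 genes. The median difference of the members was -0.01 against 0.03 over all genes. Their quartiles were -0.17 and 0.18, against -0.18 and 0.20 over all genes, and the median size of a difference was 0.18 against 0.20. Differences over 0.5 in size occurred in 5 members, or 12.8%, against 17.6% of all genes. The medians within replicate numbers were -0.12, 0.01 and 0.02 for pairs 1, 2 and 3. The split depended on single arrays. It was 12 above and 27 below (median -0.09) when control replicate 2 was left out, and 24 and 15 (median 0.10) when control replicate 3 was. It was 23 and 16 (median 0.07) when replicate 1 of FOG1 ki/ki was left out, and 14 and 25 (median -0.13) when its replicate 3 was.

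**Figure D1:**
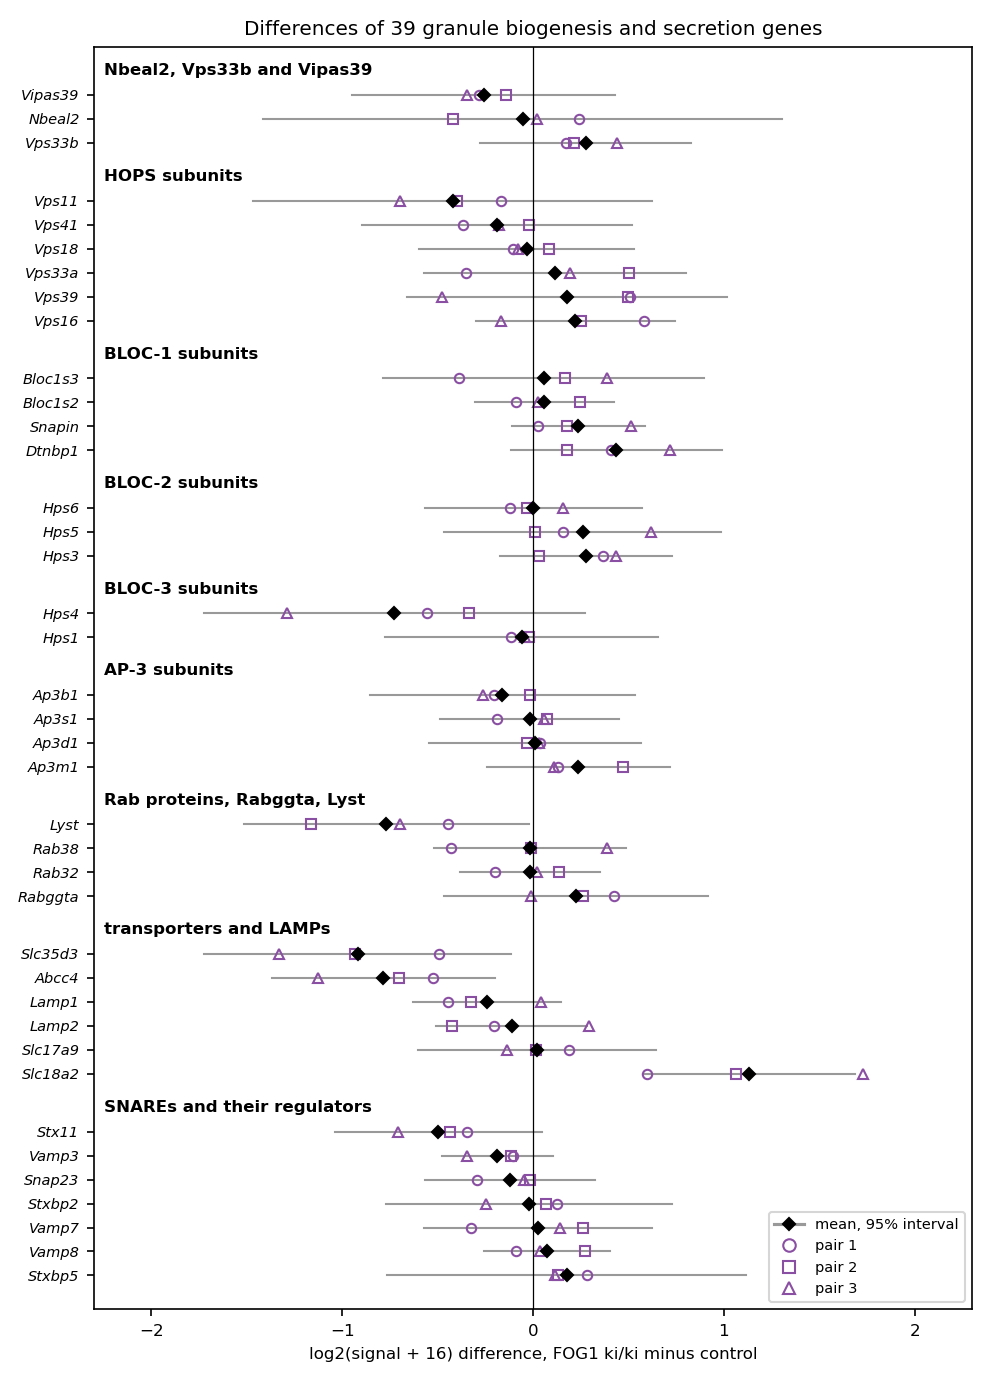
Differences of the 39 genes tested on the log2(signal + 16) scale, FOG1 ki/ki minus control, grouped by role. Diamonds are means over 3 arrays a group with limma's 95% interval (no replicate block), and open symbols are the differences within replicate numbers. Slc18a2 lies furthest to the right at 1.13 and Slc35d3 furthest to the left at -0.92, and most other intervals cross 0.

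Slc18a2, Slc35d3 and Abcc4, which had the largest differences among the members, are transporters of the dense granule membrane, while a further one, Slc17a9, differed by 0.02. Slc18a2, also called VMAT2, loads serotonin and other monoamines into the granule. Slc35d3 resembles nucleotide sugar transporters and is needed for dense granules in the mouse. Abcc4, also called MRP4, exports cyclic nucleotides and is found in the dense granule membrane. Their promoters are shown because these 3 transporters stood furthest from control and FOG1 acts with GATA factors. Sequences are RefSeq's for the build GRCm38.p6, 300 bases each, 250 before and 50 after a start of transcription, and capitals mark GATA hexamers on either strand. The hexamers searched were AGATAA and AGATAG, and the same with T as the first base, namely TGATAA and TGATAG.

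Slc18a2, chr19:59260628-59260927, + strand: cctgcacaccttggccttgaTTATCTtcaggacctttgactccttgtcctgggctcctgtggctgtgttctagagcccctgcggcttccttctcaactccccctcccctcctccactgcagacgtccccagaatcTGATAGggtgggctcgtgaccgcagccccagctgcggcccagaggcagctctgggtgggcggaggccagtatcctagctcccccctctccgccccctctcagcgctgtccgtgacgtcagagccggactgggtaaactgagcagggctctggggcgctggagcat
Slc35d3, chr10:19851410-19851709, - strand: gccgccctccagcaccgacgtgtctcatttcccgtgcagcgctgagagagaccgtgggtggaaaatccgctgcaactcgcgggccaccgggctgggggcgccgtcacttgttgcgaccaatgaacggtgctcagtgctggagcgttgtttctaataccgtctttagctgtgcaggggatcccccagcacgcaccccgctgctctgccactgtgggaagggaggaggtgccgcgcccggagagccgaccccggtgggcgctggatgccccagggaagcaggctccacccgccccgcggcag
Abcc4, chr14:118706170-118706469, - strand: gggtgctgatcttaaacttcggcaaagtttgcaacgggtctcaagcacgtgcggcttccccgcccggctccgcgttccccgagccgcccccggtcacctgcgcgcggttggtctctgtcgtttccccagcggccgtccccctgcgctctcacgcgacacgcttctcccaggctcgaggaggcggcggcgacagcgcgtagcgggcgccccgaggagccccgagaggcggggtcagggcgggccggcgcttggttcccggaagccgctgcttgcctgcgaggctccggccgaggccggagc
Abcc4, another start, chr14:118676882-118677181, - strand: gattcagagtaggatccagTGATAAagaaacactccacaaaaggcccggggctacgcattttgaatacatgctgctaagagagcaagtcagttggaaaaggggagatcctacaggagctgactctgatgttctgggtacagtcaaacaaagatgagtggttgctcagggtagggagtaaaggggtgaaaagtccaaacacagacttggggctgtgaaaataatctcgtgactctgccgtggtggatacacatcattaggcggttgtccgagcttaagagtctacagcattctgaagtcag

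The Slc18a2 window held 2 GATA hexamers, beginning 230 and 115 bases before the start, the first on the reverse strand. The window of Slc35d3 and that of the first Abcc4 start held 0, and the other Abcc4 start held 1, at 231 bases before it. Lyst held 0 in its only window. Among all 32851 windows 29.8% held at least 1 such hexamer and 7.77% held 2 or more. Of 36 windows of 31 matched members, 10 held at least 1 (27.8%) and only that of Slc18a2 held 2. These are letter matches in a short window. They say nothing about where a GATA factor binds.

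Slc18a2 read 1227, 913 and 610.1 in control replicates 1, 2 and 3 and 1867, 1928.5 and 2062 in FOG1 ki/ki. Every FOG1 ki/ki array was above every control array, and the lowest control was the FOG1+/+ culture. The means were 917 ± 309 and 1952 ± 99.6 (SD, n = 3 each), a difference of 1.13 (SE 0.24, 95% interval 0.58 to 1.69, limma adjusted p = 0.223, and 0.0728 with the block). The pair differences were 0.60, 1.07 and 1.73. Over the alternative settings the difference ranged from 0.83 to 1.40. The annotation gives it 1 probe set.

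Mast cells and basophils also use this transporter, and their markers were higher alongside it. Of 20 such markers, 14 were tested. Of these 13 were above control, against 6204 of all 11260 genes, with a median difference of 1.04. Without the block 0 passed the test. With the block 1 passed, namely Ms4a2, a chain of the IgE receptor, which was higher in FOG1 ki/ki. The summed signal of the 18 measured was 4425, 4414 and 813 in control replicates 1, 2 and 3, and 8741, 8690 and 8488 in FOG1 ki/ki. A few bright genes carry that sum, and on FOG1 ki/ki replicate 3 most of it was Fcer1a (3912), Gata2 and Gzmb. Its even level in FOG1 ki/ki hides uneven genes, since Ms4a2 read 704, 564 and 189 there and Mcpt8 1206, 446 and 99.4. Gata2 is among these markers but is also a GATA factor, the kind FOG1 acts with. It read 911, 1048 and 481 in control and 1797, 2017 and 1767 in FOG1 ki/ki. Fcer1a, the ligand-binding chain of the IgE receptor, followed the same order of groups. Gzmb, a protease of mast and other blood cells, read 327, 189 and 5.96 in control and 509.6, 923 and 1785 in FOG1 ki/ki, and Mcpt1 and Mcpt2 were highest on FOG1 ki/ki replicate 3 at 204 and 214. Other markers did not follow Slc18a2 on every array. On FOG1 ki/ki replicate 3, where Slc18a2 was highest, Cpa3 read 170 and Hdc, the histamine-forming enzyme, read 19.6, both below the FOG1+/- controls though above the FOG1+/+ control at 68.2 and 17.8. The connective tissue mast cell genes Mcpt4, Mrgprb1 and Tpsab1 read at most 4.3 on any array, and Tpsb2 at most 16.3. Cma1, another mast cell protease, read 23.9, 52.6 and 14.7 in control and 113, 81.4 and 24.3 in FOG1 ki/ki. The part of these cells in the Slc18a2 difference was not tested.

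**Figure D2:**
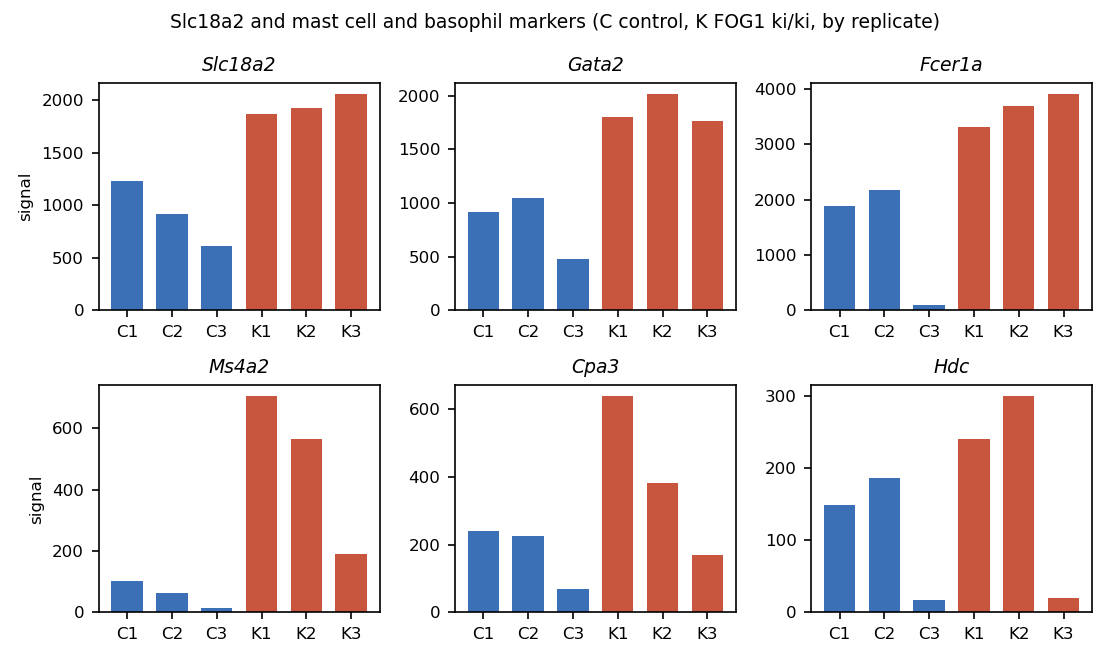
Signal of Slc18a2 and of 5 genes from the mast cell and basophil list on each array, as bars from 0 (blue, control C1 to C3, and red, FOG1 ki/ki K1 to K3). Gata2 on that list is also a GATA factor, the kind FOG1 acts with. Slc18a2, Gata2 and Fcer1a are higher on all 3 FOG1 ki/ki arrays, while Cpa3 and Hdc read only 170 and 19.6 on K3.

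Abcc4 read 491, 765.5 and 680 in control and 336, 465 and 302 in FOG1 ki/ki. The highest FOG1 ki/ki array stayed just below the lowest control. The difference was -0.78 (SE 0.25, 95% interval -1.37 to -0.20, limma adjusted p = 0.503, and 0.0793 with the block), with pair differences of -0.52, -0.70 and -1.13.

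Slc35d3 read 1147, 700 and 919 in control and 810, 359 and 355 in FOG1 ki/ki. The groups overlapped, since FOG1 ki/ki replicate 1 was above control replicate 2, but each pair was lower, with differences of -0.49, -0.93 and -1.33. The difference was -0.92 (SE 0.35, 95% interval -1.72 to -0.12, limma adjusted p = 0.629, and 0.0747 with the block). For Slc18a2, Abcc4 and Slc35d3 alike, pair 3, which holds the FOG1+/+ control, differed most. For Slc35d3 and Abcc4 that control (919 and 680) lay between the FOG1+/- controls. FOG1 ki/ki replicate 3 was the lowest array for both (355 and 302), by little for Slc35d3. For Slc18a2 the FOG1+/+ control was the lowest array and FOG1 ki/ki replicate 3 the highest. The FOG1+/+ genotype occurred only in replicate 3, so control genotype cannot be told apart from replicate number.

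Slc17a9, the vesicular nucleotide transporter that loads ATP and ADP, was dim, between 7.37 and 21.4 on all arrays, and differed by 0.02. At that signal the pseudocount of 16 limits what a difference can show. Lamp1, a heavily glycosylated lysosome and granule membrane protein, read 2038, 2523 and 2095 in control and 1494, 2013 and 2157 in FOG1 ki/ki. The groups overlapped, with a difference of -0.24 (limma adjusted p = 0.946, and 0.321 with the block). Dropping control replicate 2 left -0.15, and dropping replicate 1 of FOG1 ki/ki left -0.08.

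Lamp2, the related membrane protein, gave different results on its 4 probe sets. The brightest differed by -0.11, with pairs at -0.20, -0.42 and 0.29, and the third by -0.11. The second read 1607, 2079 and 1622 in control and 1137, 1536 and 1144 in FOG1 ki/ki, a difference of -0.47 with even pairs of -0.49, -0.43 and -0.50. The fourth read 875, 1124 and 843 against 582, 727 and 553, a difference of -0.60 with pairs of -0.58, -0.62 and -0.60. On these last 2 probe sets no FOG1 ki/ki array reached a control array. How many of all probe sets separate in this way was not counted, while 4.93% of all genes were lower without overlap. When each of 22518 probe sets was tested singly, the limma adjusted p of these 2 was 0.686 and 0.573, or 0.0861 and 0.0756 with the block. Of 69 member probe sets 0 passed, against 0.0666% of all probe sets, and 0 with the block, against 0.524%. At an unadjusted p under 0.05 there were 7 of 69, against 5.84% of all probe sets, or 11 of 69 with the block, against 14.9%. Lamp2 and Vamp7 are X-linked, and the cultures numbered 1 differed in sex.

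**Figure D3:**
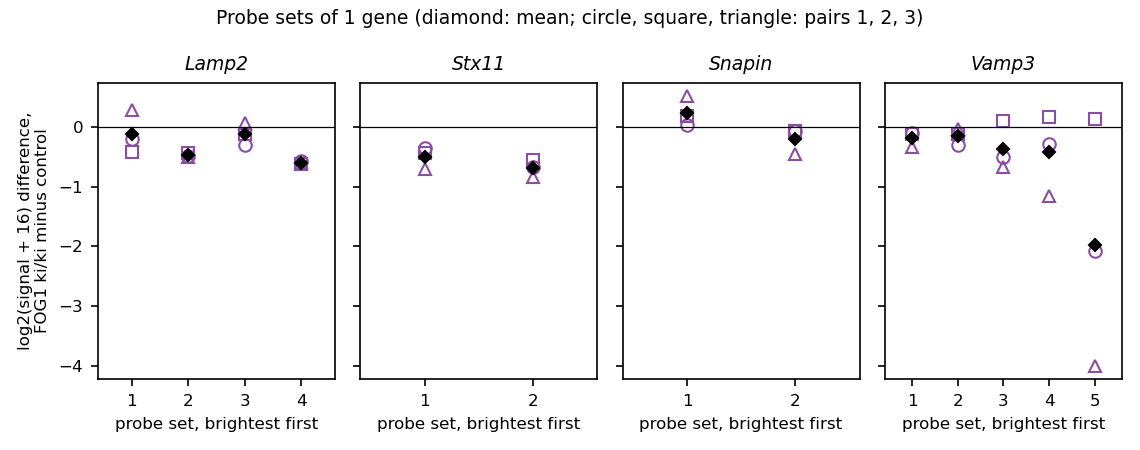
Differences on the log2(signal + 16) scale, FOG1 ki/ki minus control, for every probe set past the filter of Lamp2, Stx11, Snapin and Vamp3, ordered from brightest to dimmest. Diamonds are means and open symbols the 3 pairs. The 4 probe sets of Lamp2 run from -0.11 to -0.60, those of Snapin oppose each other at 0.24 and -0.20, and the dimmest of Vamp3 reaches -4.00 in pair 3.

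Among the Rab proteins and their partners, only Lyst stood apart from control at an unadjusted p under 0.05. Lyst, a BEACH domain protein that limits the size of lysosome-related organelles, is the gene of Chediak-Higashi syndrome. It read 288, 576.5 and 547 in control and 207, 248 and 331 in FOG1 ki/ki, so the groups overlapped through control replicate 1 and FOG1 ki/ki replicate 3. The difference was -0.77 (SE 0.32, 95% interval -1.52 to -0.02, limma adjusted p = 0.722, and 0.106 with the block), and the pairs were -0.44, -1.17 and -0.70. Its 2 other probe sets did not pass the filter. Macrophages also contain Lyst, and 19 of 19 of their markers were below control, against 5056 of all 11260 genes. Of these markers 0 passed the test in either fit, and their pair medians were uneven, at -1.84, -0.44 and -0.26. Their summed signals were 16108, 22111 and 11715 in control and 5976, 16567 and 10941 in FOG1 ki/ki. The part of macrophages in the Lyst difference was not tested. Rab32 and Rab38, the GTPases that direct cargo to dense granules, differed by -0.01 and -0.02, with 95% intervals of -0.38 to 0.35 and -0.52 to 0.49. A second Rab38 probe set differed by 0.12. Rabggta, the enzyme subunit that prenylates Rab proteins, differed by 0.22 (interval -0.47 to 0.92).

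The BLOC subunits lay on both sides of control. BLOC-1 and BLOC-2 sort cargo on endosomes towards dense granules, and BLOC-3 activates Rab32 and Rab38. All 4 measured BLOC-1 subunits and all 3 of BLOC-2 were above control, with medians of 0.15 and 0.26, and both BLOC-3 subunits were below it. Of all 11260 genes, 6204 were above control. Bloc1s2, Bloc1s3, Hps6 and Hps1 differed by only about 0.06 or less, so their side of control says little. None passed the test.

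Dtnbp1, the dysbindin subunit of BLOC-1, read 273, 234 and 209 in control and 368, 267 and 355 in FOG1 ki/ki, and only FOG1 ki/ki replicate 2 lay below a control array. Its difference was 0.44 (95% interval -0.12 to 0.99, limma adjusted p = 0.890, and 0.242 with the block). Snapin, a BLOC-1 subunit that also binds SNAP proteins, read 975, 978 and 870 against 993, 1106.5 and 1247. Those groups did not overlap, by a narrow gap, but the second Snapin probe set went the other way, at -0.20 against 0.24. Without FOG1 ki/ki replicate 3 the brighter set differed by 0.16, and the mean of both sets by 0.02. Bloc1s2 and Bloc1s3 differed by 0.06 each, with intervals of -0.30 to 0.42 and -0.78 to 0.89.

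Hps3 of BLOC-2 read 429, 498 and 500.2 in control and 557, 509.9 and 682 in FOG1 ki/ki. The groups did not overlap, and the difference was 0.28 (95% interval -0.17 to 0.73, limma adjusted p = 0.949, and 0.321 with the block). Without FOG1 ki/ki replicate 3 it was 0.16. Its partners Hps5 and Hps6 differed by 0.26 and 0.00.

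Hps4 of BLOC-3 read 453, 677 and 1434 in control and 303, 534 and 579 in FOG1 ki/ki. The FOG1+/+ control stood far above the other arrays, and the pairs were -0.56, -0.33 and -1.29. The difference was -0.73 (95% interval -1.72 to 0.27, limma adjusted p = 0.926, and 0.147 with the block). It ranged from -1.09 without control replicate 1 to -0.28 without control replicate 3, and was -0.45 without FOG1 ki/ki replicate 1. Hps1, its BLOC-3 partner, was dim and differed by -0.06.

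The AP-3 adaptor picks cargo at endosomes for lysosome-related organelles, and 2 of its 4 subunits were above control and 2 below. Its subunits Ap3d1 and Ap3s1 differed by 0.01 and -0.02, with 95% intervals of -0.54 to 0.57 and -0.49 to 0.45, and Ap3b1, the pearl mouse gene, by -0.16 (interval -0.86 to 0.53). A second Ap3b1 probe set differed by -0.42, with pairs of -0.24, 0.22 and -1.25. Ap3m1 read 400.3, 304 and 415 in control and 439.5, 427 and 449 in FOG1 ki/ki, without overlap. It differed by 0.24 (limma adjusted p = 0.982, and 0.404 with the block), or by 0.10 without control replicate 2. Its 3 other probe sets differed by 0.12, 0.14 and 0.13.

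Of the HOPS subunits, which tether endosomes and lysosomes before fusion, 3 were above and 3 below control. Vps11 differed by -0.42 (95% interval -1.46 to 0.62), Vps41 by -0.19, Vps18 by -0.03, Vps33a by 0.11, Vps39 by 0.18 and Vps16 by 0.22 (interval -0.30 to 0.74). Vps16 read 280, 291 and 376 in control and 426, 349 and 333 in FOG1 ki/ki, and its difference ranged from 0.12 to 0.35 with single arrays left out. The third probe set of Vps11 differed by 0.11, and the other sets of Vps41 by -0.48 and 0.03, so the sign of both genes depended on the probe set. Vps33b and Vipas39 form a separate complex needed for alpha granules. They stood on opposite sides, Vps33b at 0.28 and Vipas39 at -0.26. Vps33b read 334, 374 and 438 in control and 378, 436.5 and 600.1 in FOG1 ki/ki, higher in all 3 pairs. Its difference was 0.09 when replicate 3 of FOG1 ki/ki was dropped and 0.42 when replicate 1 was. Nbeal2, the gray platelet syndrome gene, read 75.8, 135 and 310 in control and 92.3, 96.9 and 314 in FOG1 ki/ki. Its difference was -0.05 with a wide interval of -1.41 to 1.31, and its spread followed the replicate number.

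Stx11 had the largest difference in the release machinery. This SNARE, which platelets need for granule secretion, read 1080.5, 1439 and 1939 in control and 847, 1059 and 1182 in FOG1 ki/ki. The 3 pairs differed by -0.35, -0.44 and -0.71, while the groups overlapped. The difference was -0.50 (SE 0.23, 95% interval -1.04 to 0.05, limma adjusted p = 0.813, and 0.0931 with the block), and it was -0.29 without control replicate 3. A second Stx11 probe set, at 590, 701 and 1124 against 367, 470.3 and 624, differed by -0.69. Stxbp2, the SM protein that binds Stx11, differed by -0.02 (interval -0.77 to 0.73).

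Vamp8, the main granule SNARE of platelet secretion, read 1696, 1258 and 1490 in control and 1593, 1522 and 1528 in FOG1 ki/ki, a difference of 0.07 (95% interval -0.26 to 0.40). Its plasma membrane partner Snap23 differed by -0.12 (interval -0.56 to 0.32) and Vamp7 by 0.03. Stxbp5, also called tomosyn, differed by 0.18 and was higher in all 3 pairs. Vamp3 read 2040, 1776 and 2007 in control and 1896, 1640 and 1578 in FOG1 ki/ki, a difference of -0.19 (interval -0.48 to 0.10). All 5 Vamp3 probe sets were below control, from -0.15 to -1.98. The dimmest, at -1.98, read 275, 39.2 and 1109 in control and 52.7, 44.7 and 54.5 in FOG1 ki/ki, so its mean rests on control replicates 1 and 3.

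**Figure D4:**
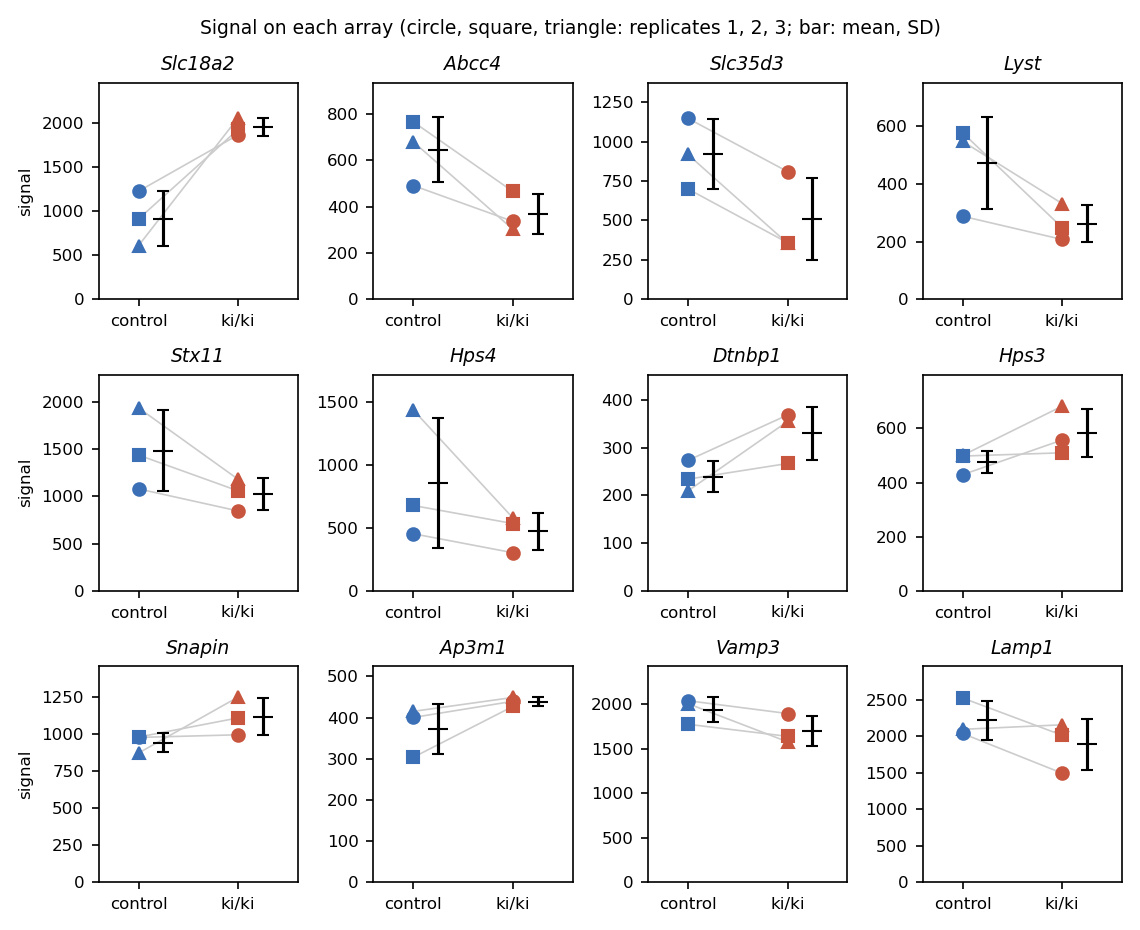
Signal of 12 members on each array, with axes from 0. Symbols give the replicate number, grey lines join equal numbers, and the bars beside them give mean and SD of 3 arrays. Slc18a2 separates the groups by a wide gap, Abcc4, Hps3, Snapin and Ap3m1 separate them by narrow ones, and the other 7 overlap.

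Separation of the groups on every array was seen for 5 members. Slc18a2, Hps3, Snapin and Ap3m1 were higher on every FOG1 ki/ki array, 4 of 39 or 10.3% against 6.32% of all genes, and Abcc4 was lower on every one, 1 of 39 or 2.56% against 4.93%. With median centring Hps3 and Ap3m1 overlapped, and with the mean of a gene's probe sets Snapin and Ap3m1 did. FOG1 ki/ki was higher in all 3 pairs for 8 members (20.5%, against 24.8% of all genes) and lower in all 3 for 12 (30.8%, against 19.3%). Those 12 were Vipas39, Vps11, Vps41, Hps1, Hps4, Ap3b1, Lyst, Slc35d3, Abcc4, Stx11, Snap23 and Vamp3.

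The replicate 3 arrays differed from the other 4 for the members as for all genes. The same counts were not made for replicates 1 and 2, so they do not show that replicate 3 differed more. In 25 of 39 members the gap between the replicate 3 arrays and the other 4 was larger than that between FOG1 ki/ki and control, 64.1% against 65.7% of all genes. Both replicate 3 arrays were above the other 4 for 13 members, 33.3% against 17.2% of all genes, and below them for 4, 10.3% against 18.8%. The 13 were Nbeal2, Vps33b, Vps33a, Vps11, Vps41, Hps1, Hps5, Ap3b1, Ap3d1, Ap3s1, Bloc1s3, Stxbp2 and Stxbp5, and the 4 were Rab38, Slc17a9, Vamp7 and Rabggta. Stxbp5, for example, read 486, 448 and 1047 in control and 594, 492 and 1135 in FOG1 ki/ki. Neutrophil markers followed the replicate number too, with summed signals of 2750 and 3918 in the cultures numbered 3 and 9325 to 16345 elsewhere. Fibroblast markers were also lowest there, at summed signals of 1962, 8841 and 304 in control and 1284, 3628 and 227 in FOG1 ki/ki. Of 12 fibroblast markers tested, 11 were below control (median -0.74) and 0 passed the test in either fit. Their pair medians were uneven, at -0.42, -1.22 and -0.17. The replicate 3 arrays also had the lowest median signals (7.75 and 5.93) and the highest Gapdh 3' to 5' ratios (1.86 and 2.38). For actin the FOG1 ki/ki one was highest (2.76), while the control one (1.93) lay below the arrays numbered 2 (2.11 and 2.06). On the control one only 3.88% of the values had no digits past 1 decimal, against 100% on the arrays numbered 1 and 2. The part of these in the pattern was not tested.

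**Figure D5:**
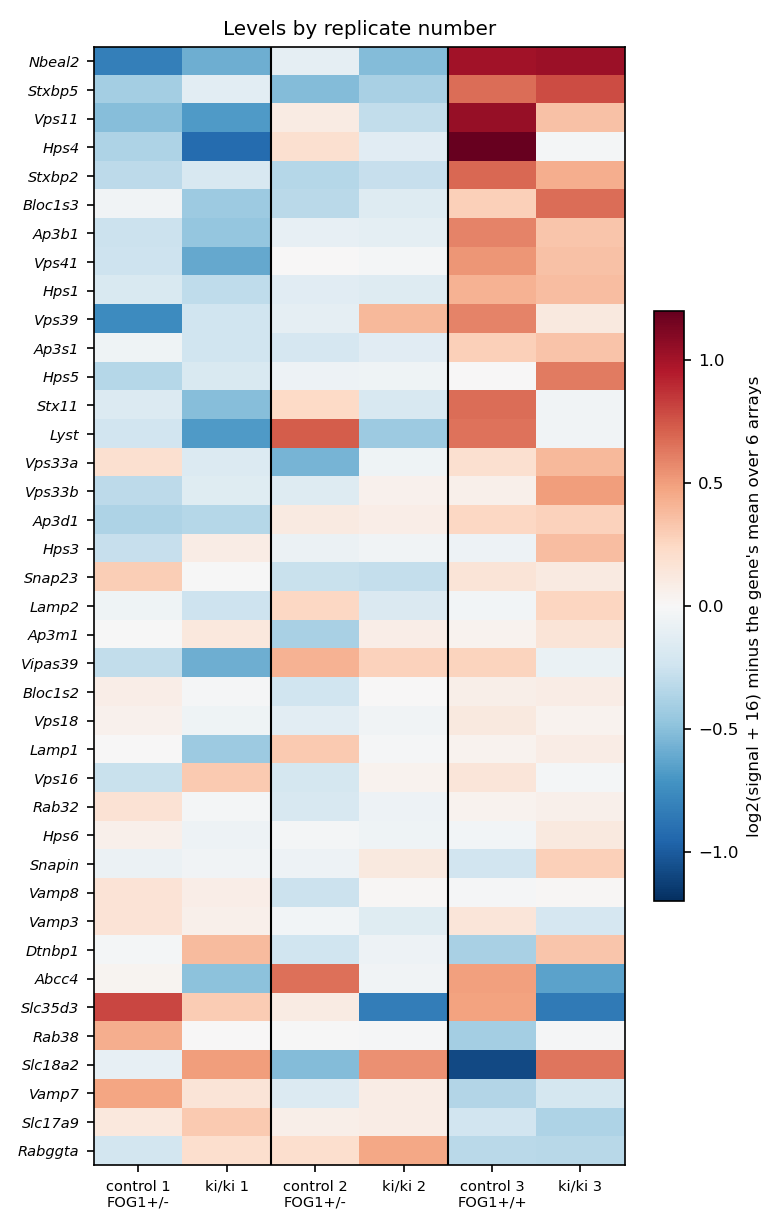
Log2(signal + 16) of the 39 genes relative to each gene's mean over the 6 arrays, arrays side by side by replicate number and genes ordered by how far the replicate 3 arrays stand above the rest. The 13 genes highest on both replicate 3 arrays lie towards the top in red, and Slc18a2, Abcc4 and Slc35d3 near the bottom differ between the 2 arrays of each number.

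Related genes outside the named 40 were read from 4 lists. Of 25 other SNAREs and SM-type proteins tested, 8 were above and 17 below control (median -0.09), and 0 passed the test with or without the block. Cplx2, a complexin that regulates SNARE fusion, had a mean of 50.4 in control and 195 in FOG1 ki/ki. Its difference was 1.57 (limma adjusted p = 0.348, and 0.0584 with the block). Vamp4 differed by -0.79, Snap29 by -0.55 and Stxbp3 by -0.50. Of 25 other subunits and partners of the sorting complexes, 14 were above and 11 below (median 0.01), and again 0 passed. Among them Nbea, a BEACH protein related to Nbeal2, differed by 0.82, Ap2a1 by 0.84, Chml by 0.47 and the recycling GTPase Rab11a by -0.22.

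Of 13 other granule and lysosome membrane proteins tested, 11 were below control (median -0.14) and 0 passed in either fit. Selp, the P-selectin of the alpha granule membrane, read 2747, 2857 and 2784 in control and 2304, 2435 and 2512 in FOG1 ki/ki, a small difference of -0.21 without overlap. Slc29a3 differed by -0.39, Cd9 by -0.14 and Tpcn2 by 0.44.

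Granule cargo lay below control in 14 of 14 genes tested, against 5056 of all 11260 genes. The cargo median was -0.37, with pair medians of -0.26, -0.52 and -0.27, while 0 passed the test in either fit. Pf4, Ppbp and Vwf are also among the megakaryocyte markers, so the 2 counts below control share genes. Timp3, an inhibitor of matrix proteases, read 2141, 2196 and 2008 in control and 1360, 1237 and 1506 in FOG1 ki/ki, a difference of -0.63 (limma adjusted p = 0.211, and 0.0635 with the block). F5, Thbs1 and F13a1 differed by -2.16, -1.38 and -1.50. Whether cargo and machinery differ from each other was not tested. Side by side, the median was -0.37 for the cargo, -0.01 for the 39 members and 0.03 for all genes.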

How the data were processed

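The deposited values were linear intensities for each probe set, made by the authors with MAS5 per the submitters' processing notes (genome build and version not given in the sources used here). Of 45101 probe sets, 64 control ones were left out, and names came from the platform annotation (34754 probe sets matched RefSeq by Entrez identifier). Values were analysed as log2(signal + 16). Probe sets in the dimmer 50% by mean were dropped and each gene kept its brightest, giving 11260 genes. The genotypes were tested with limma 3.58.1 under R 4.3.3 (lmFit, eBayes with a trend, Benjamini-Hochberg, threshold 0.05) over all genes. The fit was also run on simulated data with known changes, which checks the code and not the error rate on these arrays. Python 3.11.15 did the rest. Same-numbered arrays deviated together from their group means (r = 0.482, 0.689 and 0.674 over genes), so replicate numbers were read as pairing, and blocked values stand beside results. The members and gene lists were chosen with earlier results of these data known. Members past the test, without overlap or with the smallest unadjusted p, 14 in all, are given array by array (Lamp2, Nbeal2, Vamp8 and Stxbp5 were added after their values were seen), and up to 4 genes of each related list by p. Further mast cell markers beside Slc18a2 were named after their values were seen. The labels call the samples biological replicates. P-values measure only the spread between these cultures.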

Additional observations from a re-analysis of the deposited data

How the results depend on the processing

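No member passed in any alternative run: other pseudocounts, filters, quantile normalization, median centring, probe set means, no trend, the replicate block, each array or number left out, and, added after seeing the data, single probe sets. The lowest member adjusted p was 0.0728 (Slc18a2, replicate block). None of the 14 genes chosen by rule changed direction in the 18 alternatives that fit 1 value a gene, while among single probe sets the second of Snapin was opposite. Over all genes, 17 passed, but 8 with a pseudocount of 1, 1 without the filter, 3 in the brightest 25% of probe sets, 94 with the replicate block and 0 to 2 without single arrays or replicate numbers. The median of members ranged from -0.13 to 0.10 (-0.126 to 0.0976) with arrays left out. Members without overlap were 4 higher and 1 lower. With quantile normalization 2 were lower (Abcc4, Lamp1), with median centring 2 were higher, with probe set means 2 were higher and 2 lower, and with arrays left out, where fewer arrays must separate, 4 to 8 were higher and 1 to 6 lower. Dim members such as Slc17a9 and Hps1 are limited by background.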
